A study of Homo sapiens with 120 samples.

Results

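The genes described here are the 8 that carry the enzymatic core of DNA methylation and its removal: the methyltransferases DNMT1, DNMT3A and DNMT3B, the cofactor DNMT3L, the DNMT1 recruiter UHRF1, and the oxidases TET1, TET2 and TET3. They were chosen by name, as 8 of the 62703 genes of the deposited table. RNA was measured in 120 libraries from H1 (an established line of human embryonic stem cells) in a study of the long non-coding RNA LNCPRESS1. A differentiation arm of 96 libraries (48 groups) compares unedited cells (WT), cells labelled as an LNCPRESS1 knockout (KO), and cells labelled ΔATG, by its name an allele without a start codon. Each line was sampled while undifferentiated (day 0) and daily from day 1 to day 5 of differentiation by 3 protocols, which are BMP4 for mesoderm, a dual SMAD inhibition kit for neuroectoderm (SMADi) and a kit for definitive endoderm (Endo). The kit cultures were seeded in the ROCK inhibitor Y-27632 at their day 0. The overexpression arm holds 24 libraries in 12 groups of unedited H1 cells labelled with an empty vector, lncPRESS1, lncPRESS1DATG or lncSIRP, at stages named early, middle and late. The sources used here do not give the identity of lncSIRP, the timing of the stages or the number of clones per edit or construct, so line and clone cannot be told apart. Each group has 2 libraries, a and b. No label says that they came from separate cultures, so p-values reflect only the spread between libraries of a group, which may be technical. With 2 libraries per group, that spread was estimated over all groups of an arm together, not from the compared libraries alone.

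DNA methylation in mammals is the addition of a methyl group to cytosine, mainly where a guanine follows it (a CpG). DNMT3A and DNMT3B write it on unmethylated DNA, and DNMT3L, which has no catalytic activity of its own, stimulates them. DNMT1 copies the pattern onto the new strand after replication, brought there by UHRF1, which binds hemimethylated CpGs and ubiquitinates histone H3. The TET enzymes oxidise methylcytosine, which leads to its loss by dilution or by base excision. Human embryonic stem cells are known for a high level of DNMT3B and for TET1 as their main TET enzyme, and TET2 and TET3 are known from differentiated cells.

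Counts are given per library as CPM, that is counts scaled to the library's effective size (TMM). Differences are log2 fold changes ± SE, and "rose", "fell" and "called" mark an adjusted p, over all genes tested, under 0.05. Between lines or constructs "rose" and "fell" mean higher or lower than WT or vector, not a change over time. Total counts ran from 38298440 to 71220396 in the differentiation arm and from 40113672 to 65466258 in the overexpression arm. The median log2 fold change over all genes tested lay between -0.053 and 0.063 in every comparison of fold changes made here. The edit was visible in the RNA of LNCPRESS1 at day 0, which measured 21.4 and 40.6 CPM in WT, 13.2 and 5.61 in KO and 53.1 and 35.2 in ΔATG. The KO libraries lay below both WT libraries but above 0 (-1.72 ± 0.29, adjusted p = 0.000114). In ΔATG the difference of 0.51 ± 0.28 missed the threshold. The marker genes of each lineage were present in WT by day 5: 8 of 8 mesoderm markers rose in BMP4, 8 of 8 neuroectoderm markers in SMADi and 8 of 8 endoderm markers in Endo. Markers of other cell types rose too. In BMP4 7 of 8 amnion or trophoblast markers rose and 1 fell (median 7.47, beside 5.88 for the mesoderm markers), 6 of 8 endoderm markers rose (median 6.26), and 4 of 6 fibroblast markers rose and 1 fell. Neuroectoderm markers rose there for 5 of 8 and fell for 2 (median 1.69). In SMADi 3 of 8 endoderm markers rose and 2 fell, and 2 of 8 streak and mesoderm markers rose and 3 fell. In Endo 6 of 8 streak and mesoderm markers rose (median 4.18), and 4 of 8 neuroectoderm markers rose and 3 fell. The part of these cell types in the members' values was not tested. In bulk RNA fewer cells of a type and less RNA per cell cannot be told apart.

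All 8 members passed the filter on low counts in both arms. In GENCODE 29 on GRCh38, DNMT1 lies on chromosome 19 from 10133345 to 10231286 on the minus strand and UHRF1 on the same chromosome from 4903080 to 4962154 on the plus strand. DNMT3A lies on chromosome 2 from 25227855 to 25342590 (minus), DNMT3B on chromosome 20 from 32762385 to 32809356 (plus) and DNMT3L on chromosome 21 from 44246339 to 44262216 (minus). TET1 lies on chromosome 10 from 68560656 to 68694482, TET2 on chromosome 4 from 105145875 to 105279816 and TET3 on chromosome 2 from 73986404 to 74108176, all on the plus strand. The values are counts over whole genes, so no exon or isoform is resolved. S1PR2 lies inside the bounds of DNMT1 on the same strand, and antisense genes overlap DNMT3L, TET2 and TET3. The library kit marks strand, but whether the counting used it is not given, so reads of these overlapping genes cannot be told apart from those of the members.

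DNMT1 and UHRF1, the maintenance pair, rose together on the first day of every protocol (below), and the 250 bases before their RefSeq starts (GRCh38.p14) are shown for that reason, 5′ to 3′ on the strand of the gene, with each CpG in capitals. The DNMT1 window is chr19:10194954-10195203 (minus) and the UHRF1 window chr19:4909251-4909500 (plus). Their RefSeq starts lie 36333 and 6421 bases from the starts of the GENCODE genes. Whether these sequences have a part in the rise was not tested.
DNMT1: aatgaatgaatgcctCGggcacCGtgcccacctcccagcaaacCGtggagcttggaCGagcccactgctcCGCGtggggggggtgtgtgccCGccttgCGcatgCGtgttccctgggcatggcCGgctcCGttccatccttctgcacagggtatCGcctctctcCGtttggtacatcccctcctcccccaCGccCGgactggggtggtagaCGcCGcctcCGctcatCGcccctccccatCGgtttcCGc
UHRF1: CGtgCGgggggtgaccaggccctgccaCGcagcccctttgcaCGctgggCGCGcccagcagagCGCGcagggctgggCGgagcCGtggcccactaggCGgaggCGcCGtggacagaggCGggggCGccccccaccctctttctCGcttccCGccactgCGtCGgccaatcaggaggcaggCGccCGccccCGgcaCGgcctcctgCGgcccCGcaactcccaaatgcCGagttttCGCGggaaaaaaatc
The DNMT1 window holds 21 CpGs and the UHRF1 window 28, where the median of 35116 RefSeq windows of the same length is 11. Windows with at least as many CpGs made up 30.2% of all for DNMT1 and 15.9% for UHRF1. The E2F-like words TTTCCCGC and TTTGGCGC were searched on both strands. The printed UHRF1 window holds 1 match and the DNMT1 window 0, and 1.93% of all windows hold such a match. The windows of the other two listed UHRF1 starts, which begin at 4909894 and 4910117 and were not printed, hold 0 matches each, and the RefSeq windows covered 7 of the 8 members.

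In undifferentiated WT cells the set was dominated by DNMT3B. Per kilobase of the gene's merged exons it measured 324.1 ± 24.6 CPM (SD, n = 2), followed by DNMT1 at 23.6 ± 1.2, UHRF1 at 13.8 ± 0.397, DNMT3A at 11 ± 0.0533 and TET1 at 8.3 ± 2.96. TET3 stood at 2.94 ± 0.125, TET2 at 0.181 ± 0.00468 and DNMT3L at 0.168 ± 0.0699. The ranges of the 2 libraries overlap between TET2 and DNMT3L only, and TET1 lies close under DNMT3A, its own libraries being 96.5 and 57.6 CPM. DNMT3B made up 84.4% of the summed level of the 8 genes per kilobase, and its level was 29.5 times that of DNMT3A. Merged exons span 4630 bases over 6 transcripts for DNMT3B, 9796 over 28 for DNMT1 and 12020 over 15 for DNMT3A. The lengths of the transcripts expressed are not resolved, so ranks, shares and ratios between genes depend on this divisor. At day 5 its share was 72% in BMP4, 69.3% in SMADi and 53.2% in Endo, and its ratio to DNMT3A was 19.7, 8.4 and 4.27. All 8 were listed above 0 in both WT libraries of day 0, DNMT3L by only 13 and 23 counts.

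Of the de novo enzymes in WT cells, DNMT3B fell in all 3 protocols, and DNMT3A moved differently in each. DNMT3B measured 1581 and 1420 CPM at day 0. In Endo it was 1024 and 1078 at day 1, 511 and 516 at day 2, 221 and 238 at day 3, and 194 and 211 at day 5, close to the day 3 values. In BMP4 it was 1239 and 1163 at day 1 and stood at 698 and 623 at day 5. In SMADi it was first higher, 2131 and 2090 at day 1 (0.49 ± 0.07), stayed at 1678 and 1783 on day 3, and reached 692 and 674 at day 5. No library of day 5 overlapped day 0 in any protocol. The fall to day 5 was -2.89 ± 0.07 in Endo (adjusted p = 1.12e-37), -1.18 ± 0.07 in BMP4 (adjusted p = 1.17e-20) and -1.14 ± 0.07 in SMADi (adjusted p = 2.54e-20).

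DNMT3A measured 132 and 131 CPM at day 0. In SMADi it reached 291 and 276 at day 1 (1.10 ± 0.11, adjusted p = 5.89e-12), was 143 in both libraries at day 2 and stood at 217 and 205 at day 5 (0.68 ± 0.11, adjusted p = 6.58e-07). In BMP4 it was 175 and 162 at day 1 (0.35 ± 0.11) and 95.9 and 78 at day 5, a fall of -0.60 ± 0.11 (adjusted p = 1.06e-05). In Endo it ran from 116 to 143 CPM over the 5 days and was not called on any of them. The SMADi libraries of day 5 thus lay above, and the BMP4 libraries below, both libraries of day 0. DNMT3L was rare throughout, with at most 54 counts in any library of the arm. It stood at 5 and 2 counts at day 5 of SMADi (-2.18 ± 0.58, adjusted p = 0.00123), a call that was lost without library b of that day (-1.64, adjusted p = 0.0514), and rose on day 3 of Endo (50 and 25 counts, 1.17 ± 0.47, adjusted p = 0.0273), where 59.5% of all genes were called.

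The maintenance pair rose on the first day of each protocol and then fell furthest in Endo. DNMT1 measured 240 and 223 CPM at day 0. At day 1 it was 291 and 330 in BMP4 (0.42 ± 0.09), 326 and 314 in SMADi (0.47 ± 0.09) and 329 and 305 in Endo (0.45 ± 0.09), above both day 0 libraries each time. UHRF1 went from 72.4 and 69.5 CPM to 124 and 120 in BMP4 (0.78 ± 0.14), 163 and 159 in SMADi (1.18 ± 0.14) and 146 and 128 in Endo (0.95 ± 0.14). Members called on day 1 numbered 5, 7 and 4 of 8 in BMP4, SMADi and Endo, beside 27.2%, 43.6% and 46.2% of all genes. Of 16 S phase genes, such as the MCM helicase subunits and the sliding clamp PCNA, 11, 15 and 12 rose on the same day and 0 fell. What part of the rise goes with cycling cells was not tested.

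By day 5 of Endo DNMT1 stood at 86.8 and 91.1 CPM (-1.38 ± 0.09, adjusted p = 1.49e-19) and UHRF1 at 38.2 and 39.5 (-0.87 ± 0.14, adjusted p = 4.95e-07), both under every day 0 library. There 15 of 16 S phase genes fell and 1 rose, MCM3 by -1.96 ± 0.06. Their part in the fall of the pair was not tested. In SMADi DNMT1 was 173 and 191 CPM at day 5 (-0.35 ± 0.09, adjusted p = 0.000873) and UHRF1 54.7 and 71.7, not called (-0.17 ± 0.14). In BMP4 neither was called at day 5: DNMT1 stood at 257 and 262 CPM and UHRF1 at 67.1 and 64.6.

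Among the oxidases TET2 rose in every protocol, from a low level. It measured 2.93 and 3.04 CPM at day 0. In Endo it was 4.97 and 6.2 at day 1, 15 and 14.9 at day 2, and 14.6 and 14.3 at day 5 (2.27 ± 0.21, adjusted p = 1.92e-14). In SMADi it first fell, to 1.77 and 2.2 at day 1 (-0.58 ± 0.22, adjusted p = 0.0266), then stood higher on each later day, up to 15.3 and 16.2 (2.40 ± 0.21, adjusted p = 6.41e-15). In BMP4 it was highest at day 2, at 12.8 and 13.2, and stood at 6.82 and 6.67 at day 5 (1.18 ± 0.20, adjusted p = 3.35e-06). From day 2 on, no WT library of any protocol overlapped day 0.

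TET1 and TET3 were less uniform. TET1 measured 96.5 and 57.6 CPM at day 0, a spread wide enough to blur its changes. It was highest in BMP4 on day 2, at 160.3 and 130 (0.91 ± 0.21, adjusted p = 0.00072), and was not called there or in Endo at day 5. In SMADi it stood at 128 and 121 at day 5 (0.69 ± 0.21, adjusted p = 0.00515), a call lost without library b of day 0 (0.37, adjusted p = 0.241). A replicate block, a letter term within each day and protocol, called TET1 lower at day 5 in BMP4 (-0.28, adjusted p = 0.0161). It does not match libraries of day 0 with those of day 5. The fit without a block gave values from -0.643 to 0.102 with 1 library left out. TET3, at 37.2 and 35 CPM on day 0, was highest at day 2 in all protocols: 57.7 and 45.1 in BMP4, 53.4 and 51.3 in SMADi and 66.1 and 57.1 in Endo, each called, where 29.4%, 34.4% and 54.7% of all genes were. By day 5 it had fallen in BMP4, to 22.9 and 17.8 (-0.82 ± 0.16, adjusted p = 2.37e-05). In Endo it was 50.8 and 45.8 (0.42 ± 0.16, adjusted p = 0.018), not called without library b of day 0 (adjusted p = 0.1) or library a of day 5 (adjusted p = 0.124).

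**Figure D1:**
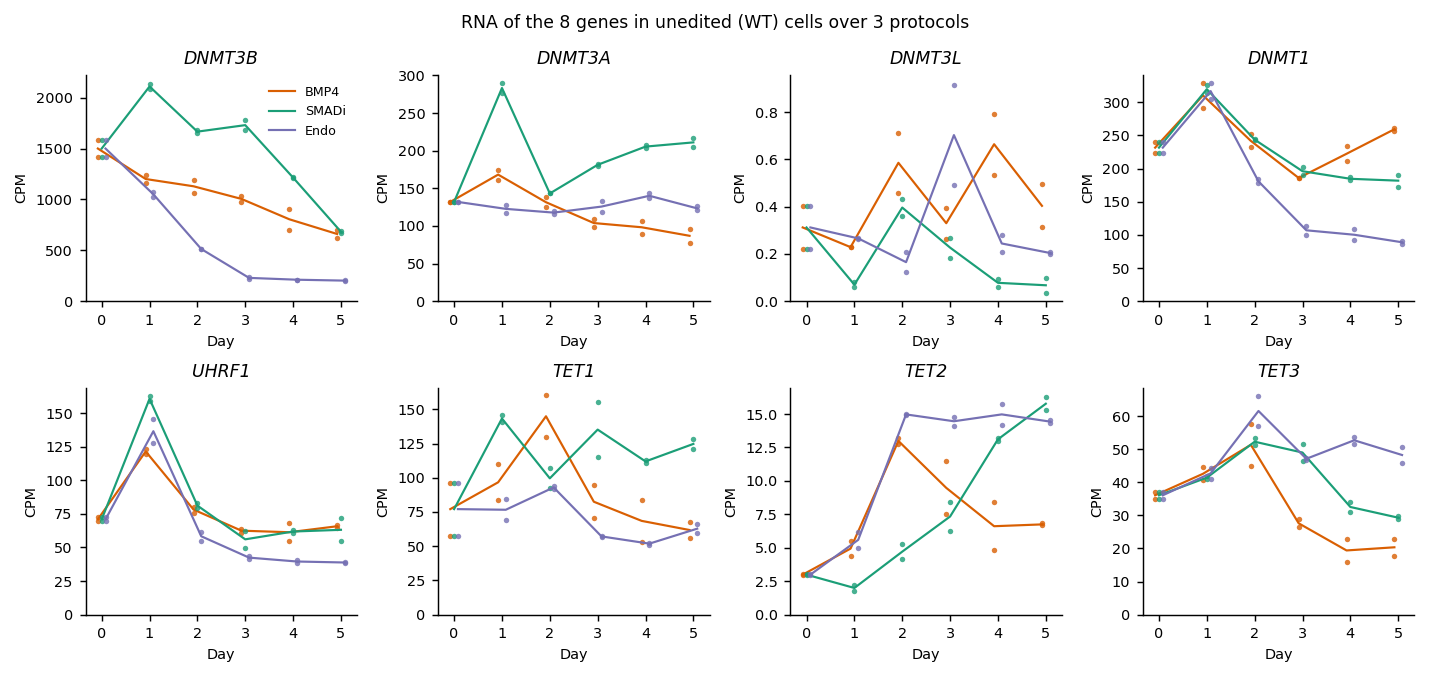
CPM of the 8 genes in WT cells (y axes) by day of differentiation (x axes) in 3 protocols. Points are single libraries and lines join the group means. DNMT3B ends between 194 and 698 CPM from 1420 and 1581 at day 0, TET2 is higher than at day 0 from day 2 on in each protocol, and DNMT1 and UHRF1 peak at day 1.

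At day 5 the 3 protocols had thus left the set in different states. Against day 0, 1 member rose and 3 fell in BMP4, 3 rose and 3 fell in SMADi, and 2 rose and 3 fell in Endo, where 42.0%, 51.6% and 62.4% of all genes tested were called. Between the protocols, DNMT3B did not differ detectably between BMP4 and SMADi (-0.05 ± 0.07), but was higher in both than in Endo, by 1.71 ± 0.07 and 1.75 ± 0.07. DNMT3A was lower in BMP4 than in SMADi (-1.28 ± 0.11, adjusted p = 1.46e-14) and Endo (-0.50 ± 0.11). TET2 was lower in BMP4 than in SMADi (-1.23 ± 0.19) and Endo (-1.10 ± 0.19). TET1 was higher in SMADi than in BMP4 or Endo, by 1.01 ± 0.22 and 0.99 ± 0.22. DNMT1 and UHRF1 were lowest in Endo. Members called numbered 6 of 8 in BMP4 against SMADi, 6 of 8 in BMP4 against Endo and 7 of 8 in SMADi against Endo, beside 52.4%, 57.7% and 59.0% of all genes. TET3 was lower in BMP4 (-1.24 ± 0.16) and SMADi (-0.72 ± 0.16) than in Endo. Lower also in BMP4 than in SMADi (-0.52 ± 0.16), it was not called there without library b of day 5 in BMP4 (adjusted p = 0.137). DNMT3L was higher in BMP4 than in SMADi (2.56 ± 0.57, adjusted p = 0.00013), at 36 and 16 against 5 and 2 counts. It was lower in SMADi than in Endo (-1.58 ± 0.60), but not called there without any of 3 of the 4 libraries, up to an adjusted p = 0.227.

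Genes that act with the members moved in both directions in WT by day 5. Of 8 partners of maintenance methylation, 0 rose and 4 fell in BMP4, 1 rose and 5 fell in SMADi and 1 rose and 7 fell in Endo, with medians of -0.30, -0.36 and -0.98. CDCA7L, a relative of the activator of the remodeller HELLS, fell by -0.94 ± 0.10, -1.65 ± 0.10 and -2.89 ± 0.10. UHRF2, the paralogue of UHRF1, rose in SMADi (1.57 ± 0.12) and Endo (0.90 ± 0.12). QSER1, which protects sites from de novo methylation together with TET1, fell in BMP4 (-0.53 ± 0.20) and Endo (-1.98 ± 0.20).

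Most of the called genes listed as readers of methylated CpG rose. Of 10, 5 rose and 1 fell in BMP4, 7 rose and 0 fell in SMADi, and 9 rose and 0 fell in Endo, with medians of 0.27, 0.51 and 1.13. ZBTB4, a zinc finger reader, measured 26.8 and 28.2 CPM at day 0, 43.4 and 44.9 at day 5 of BMP4 and 88.9 and 86.8 at day 5 of Endo, with no overlap (0.69 ± 0.07 and 1.68 ± 0.07). MBD6 fell in BMP4 (-0.41 ± 0.15), and whether it reads methylated CpG was not tested.

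Of 11 partners of base excision and demethylation, 2 rose and 4 fell in BMP4, 4 rose and 3 fell in SMADi, and 4 rose and 4 fell in Endo. GADD45A, a stress protein linked to demethylation, rose in each (2.99 ± 0.12, 1.88 ± 0.12 and 3.08 ± 0.12). OGT, the O-GlcNAc transferase that binds TET proteins, fell in BMP4 (-0.84 ± 0.12) and Endo (-1.06 ± 0.13) and rose in SMADi (0.78 ± 0.12). Of 7 CXXC proteins, which bind unmethylated CpG, 2 rose in BMP4, 3 rose and 2 fell in SMADi, and 1 rose and 6 fell in Endo. CXXC4, a neighbour and binding partner of TET2, measured 3.03 and 1.6 CPM at day 0, 18.7 and 18.4 at day 5 of SMADi and 17.4 and 17 at day 5 of Endo. It rose in those (3.0 ± 0.30 and 2.89 ± 0.30) and was not called in BMP4, at 2.98 and 2.23 CPM. Of 8 genes for the histone marks that DNMT3 enzymes read, 3 rose and 1 fell in BMP4, 5 rose in SMADi, and 4 rose and 1 fell in Endo. NSD2, a writer of H3K36 methylation, rose in BMP4 (0.60 ± 0.08) and SMADi (1.02 ± 0.08).

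In undifferentiated KO cells 1 of 8 members was called, where 3.63% of all genes were. UHRF1 measured 63.2 and 38.9 CPM in KO and 72.4 and 69.5 in WT, so KO lay below WT without overlap (-0.47 ± 0.14, adjusted p = 0.0454). The call was lost without KO library b (adjusted p = 0.848), WT library a (0.335) or WT library b (0.0702), and in a fit of the compared groups (0.98). The fit with libraries paired by letter called 2676 of 25821 genes. Of the members it called 5, all lower: UHRF1, DNMT1 (-0.24, adjusted p = 0.0472), DNMT3A (-0.30, adjusted p = 0.00844), TET1 (-0.42, adjusted p = 0.0031) and TET3 (-0.36, adjusted p = 0.0163). KO library b stood low for several of them, with DNMT3A at 136 and 85 CPM and TET3 at 35.5 and 22.3. In ΔATG at day 0 edgeR called 0 of the 8, where 3.93% of all genes were called, and 0 had an unadjusted p under 0.05. DESeq2 and voom called 0 as well. DNMT3B measured 1354 and 1402 CPM there. Both edited lines are compared with the same WT libraries here and below.

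In BMP4 both edited lines had more DNMT3B than WT, and KO had less TET2 than WT or ΔATG. DNMT3B at day 5 measured 698 and 623 CPM in WT, 1355 and 1327 in KO and 1104 and 1135 in ΔATG. From day 2 on, every KO and ΔATG library lay above both WT libraries of its day. Averaged over days 1 to 5 it was higher by 0.60 ± 0.03 in KO (adjusted p = 1.33e-22) and 0.45 ± 0.03 in ΔATG (adjusted p = 3.13e-17), and lower in ΔATG than in KO (-0.15 ± 0.03, adjusted p = 0.000496). The edited lines differed in 3 of 8 members over these days, DNMT3B, TET2 and TET3, beside 12.6% of all genes. The difference to WT grew from 0.16 ± 0.07 at day 1, not called, to 1.02 ± 0.07 at day 5 in KO, and from 0.14 ± 0.07 to 0.76 ± 0.07 in ΔATG. All genes called numbered 0.813% and 19.5% on those days in KO, and 0.747% and 8.84% in ΔATG. The day dependence was called in KO (adjusted p = 9.56e-08) and ΔATG (adjusted p = 0.000862), but not in a fit of the compared groups (adjusted p = 0.0798 and 0.492). With the libraries paired by letter it was also called for DNMT3A in KO (adjusted p = 0.0144).

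TET2 was highest on day 2 of BMP4, at 12.8 and 13.2 CPM in WT, 7.75 and 7.86 in KO and 14 and 10.1 in ΔATG. On days 2 to 5 both KO libraries lay below both WT libraries, on day 5 at 4.86 and 3.88 against 6.82 and 6.67. Averaged over days 1 to 5 it was lower in KO than in WT (-0.62 ± 0.09, adjusted p = 1.07e-07). In ΔATG the value was -0.03 ± 0.09, with a 95% interval from -0.20 to 0.14, and the direct comparison of the edited lines was called (0.58 ± 0.09 higher in ΔATG, adjusted p = 1.76e-06). Members called were 2 of 8 in KO, where 27.7% of all genes were, and 1 of 8 in ΔATG, where 15.8% were. With the libraries paired by letter 4 were called in ΔATG, the added ones being DNMT3A (0.12, adjusted p = 0.00612), TET1 (0.14, adjusted p = 0.0163) and TET3 (0.20, adjusted p = 0.0011), and TET1 was added in KO (-0.11, adjusted p = 0.0471). That fit called 5885 of 25821 genes in ΔATG and 8693 in KO. Without some single libraries the ΔATG count was up to 3.

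Marker genes moved with these values in BMP4. Of 8 pluripotency markers, 6 were higher and 0 lower in each edited line, with SOX2 higher by 0.87 ± 0.05 in KO and 0.61 ± 0.05 in ΔATG. Their summed level over days 1 to 5 ran from 3305 to 6435 CPM in WT, 4201 to 6583 in KO and 4360 to 6542 in ΔATG. Of 8 streak and mesoderm markers, 8 were lower in KO and 7 in ΔATG, the sum running from 143 to 528 CPM in WT, 58.6 to 160 in KO and 61.3 to 317 in ΔATG, with no marker at 0 in all libraries of a line. Of 8 amnion or trophoblast markers, 1 was higher and 7 lower in KO (median -1.37) and 2 were lower in ΔATG (median -0.33), and of 8 endoderm markers 1 was higher and 7 lower in each line (medians -1.33 and -0.85). Of 16 S phase genes, 8 were higher and 1 lower in KO, and 6 higher and 1 lower in ΔATG. Their part in the DNMT3B and TET2 differences was not tested.

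In SMADi the direction for DNMT3B was the opposite. The 2 edited lines differed from WT in 7 of 8 members each, beside 46.6% of all genes in KO and 45.8% in ΔATG. DNMT3B at day 5 measured 692 and 674 CPM in WT, 202 and 198 in KO and 246 and 248 in ΔATG. On each of the 5 days every library of the edited lines lay below both WT libraries, already at day 1 with 1537 and 1485 in KO and 1494 and 1487 in ΔATG against 2131 and 2090. Averaged over days 1 to 5 it was lower than in WT, by -1.08 ± 0.03 in KO (adjusted p = 4.72e-35) and -0.94 ± 0.03 in ΔATG (adjusted p = 2.59e-32). The difference grew from -0.48 ± 0.07 at day 1 to -1.77 ± 0.07 at day 5 in KO and from -0.50 ± 0.07 to -1.47 ± 0.07 in ΔATG (day dependence, adjusted p = 2.13e-19 and 2.85e-16). All genes called were 8.18% and 34.0% on those days in KO, and 9.91% and 31.2% in ΔATG. DNMT3A was lower than in WT too, with 217 and 205 CPM in WT at day 5, 151 and 135 in KO and 131 and 142 in ΔATG (averaged over days 1 to 5 -0.35 ± 0.05 and -0.33 ± 0.05). DNMT3L was called lower in both (adjusted p = 0.000393 in KO and 1.99e-05 in ΔATG), from 21 and 25 counts in WT on day 2 against 11 and 8 in KO and 3 and 8 in ΔATG. On day 4 ΔATG had 0 counts in both libraries and WT 5 and 3, so no fold is given.

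UHRF1, TET2 and TET3 were higher in both edited lines in SMADi. UHRF1 on day 3 measured 50 and 62.2 CPM in WT, 145 and 140 in KO and 137 and 136 in ΔATG. On day 1 it was not called, at 163 and 159 in WT and 151 to 176 in the edited lines, and from day 2 on every edited library lay above WT. Averaged over days 1 to 5 it was higher than in WT, by 0.79 ± 0.06 in KO (adjusted p = 5.1e-16) and 0.82 ± 0.06 in ΔATG (adjusted p = 1.43e-16). DNMT1 was higher by less, 0.13 ± 0.04 (adjusted p = 0.00783) and 0.18 ± 0.04 (adjusted p = 0.000173), and was at 173 and 191 CPM in WT at day 5 within the spread of the edited lines (149 to 194). Its call in KO was at adjusted p = 0.05 without KO library b of day 5.

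TET2 at day 5 of SMADi measured 15.3 and 16.2 CPM in WT, 30.3 and 32.4 in KO and 29.1 and 33.1 in ΔATG. On every day both edited lines lay above WT without overlap, by 1.19 ± 0.09 in KO (adjusted p = 3.15e-17) and 1.21 ± 0.09 in ΔATG (adjusted p = 1.55e-17) over days 1 to 5. TET3 on day 4 measured 31.2 and 34 CPM in WT, 56.4 and 63.7 in KO and 58.7 and 58.2 in ΔATG (0.51 ± 0.07 and 0.53 ± 0.07 over the 5 days). TET1 was not called in either line (-0.13 ± 0.10 and -0.14 ± 0.10), and its values crossed: at day 1 it was 146 and 141 CPM in WT and 116 and 107 in KO, and at day 4 111 and 113 in WT and 140 and 146 in KO. KO and ΔATG themselves differed in 1 member over the 5 days, DNMT3B (0.14 ± 0.03 higher in ΔATG, adjusted p = 0.00799), where 1.27% of all genes were called. Against WT, 46.6% of all genes were called in KO and 45.8% in ΔATG.

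**Figure D2:**
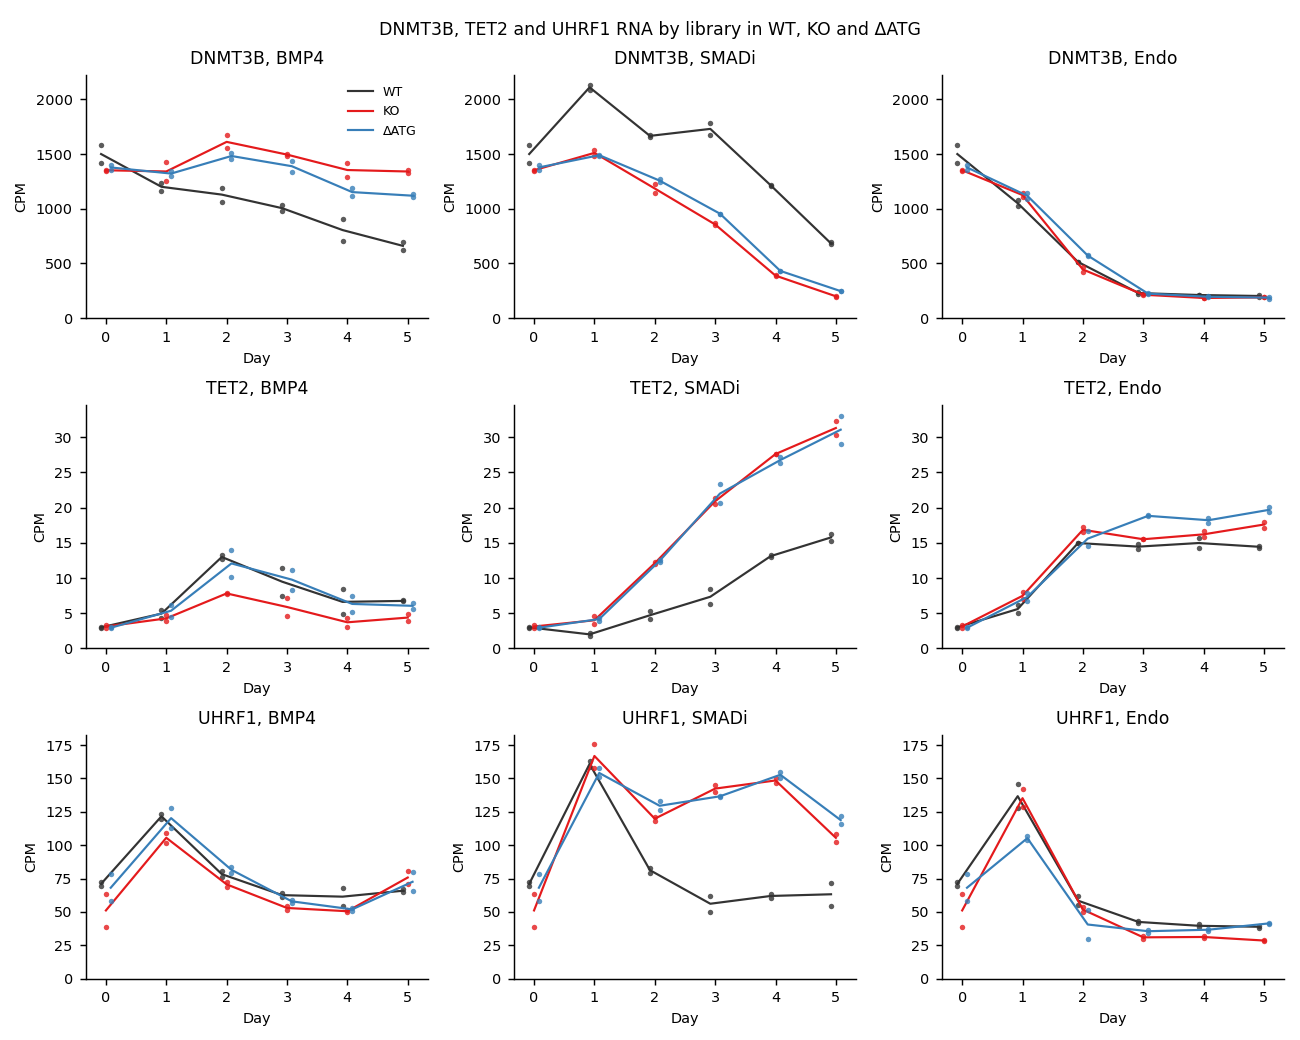
CPM of DNMT3B, TET2 and UHRF1 (rows, y axes) by day (x axes) in BMP4, SMADi and Endo (columns) for WT, KO and ΔATG. Points are single libraries and lines join the means. In SMADi the edited lines lie below WT for DNMT3B and above it for TET2, and in BMP4 they lie above WT for DNMT3B.

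Markers moved with the lines in SMADi as well. Of 8 pluripotency markers 7 were lower in each edited line, NANOG by -6.20 ± 0.33 in KO and -4.71 ± 0.27 in ΔATG, and their summed level ran from 4567 to 6532 CPM in WT, 3343 to 5510 in KO and 3547 to 5315 in ΔATG. Of 8 neuroectoderm markers 4 were higher and 2 lower in each line, with PAX6 higher (2.86 ± 0.28 in KO) and SIX3 lower (-4.05 ± 0.11). Of 16 S phase genes 9 were higher and 4 lower in KO, and 10 higher and 3 lower in ΔATG. Their part in the differences of the members was not tested. Of the genes listed as readers of methylated CpG, 6 of 10 were higher and 2 lower in KO and 5 higher and 2 lower in ΔATG. MBD2 was lower in both (-0.35 ± 0.03 and -0.32 ± 0.03). Among CXXC proteins CXXC4 was higher by 1.34 ± 0.12 and 1.32 ± 0.12, and CXXC5 lower by -0.54 ± 0.05 and -0.60 ± 0.05. EZH2, the H3K27 methyltransferase, was higher in both (0.36 ± 0.03 and 0.38 ± 0.03), and GADD45B lower (-1.86 ± 0.10 and -2.06 ± 0.10).

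In Endo fewer members were called than in SMADi, and fewer of all genes. DNMT3B at day 5 measured 194 and 211 CPM in WT, 190 and 189 in KO and 178 and 197 in ΔATG, which overlap. Of 8 members 2 were called in KO, both lower, where 15.6% of all genes were called. UHRF1 at day 5 was 38.2 and 39.5 CPM in WT and 28.4 and 28.6 in KO, without overlap. Averaged over days 1 to 5 it was lower in KO than in WT (-0.29 ± 0.06, adjusted p = 0.000663). DNMT3B was lower by -0.10 ± 0.03 (adjusted p = 0.0197). That call was lost without KO library a of day 2 (adjusted p = 0.0716), WT library b of day 3 (0.0589) or WT library b of day 5 (0.0622), with voom (0.0556) and with no filter on low counts (0.134). In ΔATG 3 of 8 were called, where 34.8% of all genes were: TET2 was higher than in WT (0.31 ± 0.09, adjusted p = 0.00272), and TET3 (-0.22 ± 0.07, adjusted p = 0.0104) and UHRF1 (-0.24 ± 0.06, adjusted p = 0.00241) were lower. TET2 at day 5 was 14.6 and 14.3 CPM in WT, 18 and 17.2 in KO and 20 and 19.3 in ΔATG, and was not called in KO (0.22 ± 0.09, adjusted p = 0.0749). ΔATG was higher than KO for DNMT1 (0.13 ± 0.04) and DNMT3B (0.10 ± 0.03), where 19.0% of all genes were called.

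Of 16 S phase genes, 15 were lower in KO in Endo and 0 higher, and 6 were lower and 1 higher in ΔATG. Endoderm markers were called lower for 1 of 8 in KO and 5 of 8 in ΔATG, with 1 higher in ΔATG. Streak and mesoderm markers were lower for 7 of 8 in KO (median -0.66) and 8 of 8 in ΔATG (median -0.89), and neuroectoderm markers for 4 of 8 in each line, with 1 higher in KO. The part of these genes in the members' values was not tested. CDCA7, which activates HELLS in maintenance methylation, was higher in both lines (0.38 ± 0.05 and 0.52 ± 0.05), and CDCA7L lower (-0.49 ± 0.05 and -0.35 ± 0.05).

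The size of the effect changed with the day for 1 of 8 members in BMP4, 4 in SMADi and 0 in Endo in KO, beside 8.50%, 32.2% and 2.78% of all genes. In Endo edgeR left 1 member with an unadjusted p under 0.05 in KO, and voom called 0 as well. In ΔATG the numbers were 1, 5 and 1, beside 1.64%, 29.5% and 15.8%. The effect of each edit differed between the 3 protocols for 7 of 8 members in KO and 7 of 8 in ΔATG, beside 48% and 49.2% of all genes. TET1 was the exception in both (adjusted p = 0.553 and 0.0758). It was no exception with the replicate block, which called 8 of 8 members in each line, beside 13786 and 14148 of 25821 genes. DNMT3B had the smallest adjusted p of the 8, higher in BMP4, lower in SMADi and near WT in Endo (adjusted p = 4.79e-36 in KO and 1.31e-32 in ΔATG).

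**Figure D3:**
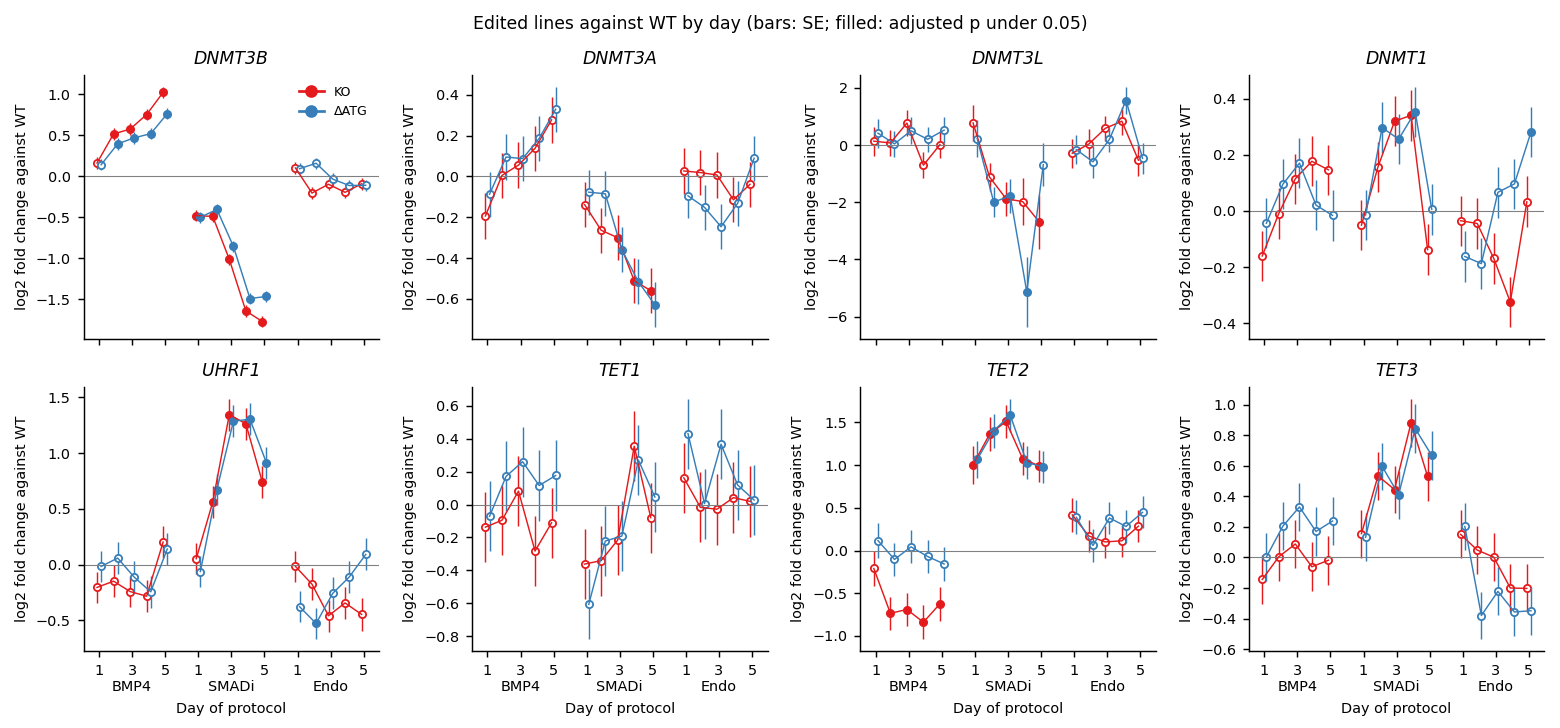
Log2 fold change against WT (y axes, ± SE) by day (x axes) for the 8 genes in KO and ΔATG in each protocol. Filled points were called over all genes tested and open points were not. DNMT3B spreads from 1.02 in BMP4 to -1.77 in SMADi at day 5 in KO, and the fitted value of DNMT3L on day 4 of SMADi in ΔATG rests on libraries with 0 counts.

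In the overexpression arm the RNA of LNCPRESS1 went against some labels. At the early stage it measured 29 and 30.2 CPM in the libraries labelled vector, 32.3 and 53.8 in those labelled lncPRESS1 (not called, 0.54 ± 0.21), 144 and 156 in those labelled lncPRESS1DATG and 185 and 133 in those labelled lncSIRP. At the middle stage the libraries labelled lncPRESS1 were at 55.1 and 58.6 against 47.8 and 36.3 for vector (not called), and at the late stage at 153 and 151 against 32.9 and 32.6 (2.22 ± 0.21). All constructs share the vector libraries. Directions below hold for the libraries as labelled.

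At the middle stage the libraries labelled lncPRESS1 and lncSIRP stood apart from all others of the arm. DNMT3B measured 264 and 263 CPM in lncPRESS1, 235 and 227 in lncSIRP, 1459 and 1224 in lncPRESS1DATG and 1269 and 1535 in vector. It fell by -2.41 ± 0.12 and -2.60 ± 0.12 (adjusted p = 3.36e-11 and 1.34e-11). TET2 was 10.1 and 10.7 CPM in lncPRESS1 and 10.8 and 11.1 in lncSIRP against 1.48 and 1.21 in vector (2.95 ± 0.33 and 3.02 ± 0.33). UHRF1 was 235 and 251, and 221 and 224, against 73.5 and 77.3 (1.69 ± 0.16 and 1.56 ± 0.16). None of these values overlapped the vector. DNMT1 and TET3 also rose and TET1 fell in each, so that 6 of 8 members were called in both, beside 57.5% and 59.5% of all genes. In lncPRESS1DATG edgeR called 0 of the 8 at this stage, beside 5.48% of all genes, and 1 had an unadjusted p under 0.05.

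These middle stage libraries also differed in markers. The 8 pluripotency markers summed to between 2059 and 2066 CPM in lncPRESS1 and 2106 and 2111 in lncSIRP, against 6218 to 6479 in vector. The 8 streak and mesoderm markers summed to 921 to 956 and 792 to 820 against 26.3 to 33.1, the 8 amnion or trophoblast markers to 406 to 408 and 281 to 288 against 11 to 11.8, and the 6 fibroblast markers to 2962 to 3067 and 3900 to 4027 against 652 to 664. Their part in the members' values was not tested.

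At the late stage DNMT3B did not differ detectably in lncPRESS1 and lncSIRP (1642 and 1996, and 1686 and 1929 CPM, against 1751 and 2030). DNMT3A was 241 and 302 CPM in lncPRESS1, 252 and 274 in lncSIRP, 260 and 272 in lncPRESS1DATG and 173 and 188 in vector, with every construct library above the vector (0.59 ± 0.12, 0.54 ± 0.12 and 0.56 ± 0.12). UHRF1 was 157 and 153, 159 and 165, and 142 and 151 against 84.9 and 111 (0.66 ± 0.15, 0.73 ± 0.15 and 0.58 ± 0.15). TET1 was lower in lncPRESS1 (103 and 93.2 CPM, -0.67 ± 0.17) and lncSIRP (104 and 93, -0.66 ± 0.17) than in vector (159 and 153). DNMT3L rose in the same 2 from 8 and 14 counts in vector to 23 and 46, and 26 and 35 (1.53 ± 0.49 and 1.49 ± 0.49). TET2 went in opposite directions, lower in lncSIRP (0.427 and 0.422 CPM against 1.28 and 0.793, -1.29 ± 0.36) and higher in lncPRESS1DATG (2.35 and 1.88, 1.02 ± 0.33).

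DNMT3B rose in lncPRESS1DATG at the late stage, to 2958 and 3004 CPM (0.66 ± 0.12, adjusted p = 0.000914), the highest values of the gene in the series. TET3 rose there too, at 51.8 and 51.1 CPM against 39.1 and 35.2 (0.47 ± 0.11, adjusted p = 0.00612). Members called at this stage were 4 of 8 in lncPRESS1, 5 in lncPRESS1DATG and 5 in lncSIRP, beside 21.5%, 19.9% and 20.7% of all genes. Of 16 S phase genes 8, 4 and 9 rose and 0 fell. Of 8 pluripotency markers 4 rose in lncPRESS1 and 2 in lncSIRP, with 0 lower, while 3 rose and 2 fell in lncPRESS1DATG. The endoderm markers summed to between 55.9 and 59.9 CPM in vector. They were higher in lncPRESS1 (5 of 8 called, sum 87.5 to 122 CPM) and lncSIRP (7 of 8, 147 to 171), and lower in lncPRESS1DATG (8 of 8, 4.37 to 4.51, median -4.13). The streak and mesoderm markers, at 36.8 to 41 CPM in vector, were higher for 3 of 8 in lncPRESS1 (63.2 to 121) and 5 of 8 in lncSIRP (106 to 140), and in lncPRESS1DATG 4 fell and 1 rose (10.7 to 11). The part of these genes in the members' values was not tested.

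At the early stage TET1 measured 40.7 and 66.1 CPM in lncPRESS1DATG against 145 and 136 in vector, without overlap (-1.40 ± 0.17, adjusted p = 4.33e-05), and TET3 22.4 and 28.5 against 34.6 and 33.8 (-0.43 ± 0.11, adjusted p = 0.0105). These 2 of 8 were called beside 23.2% of all genes. Library a of lncPRESS1DATG at this stage is marked Redo in the deposited data, and the labels do not say why. In both early lncPRESS1DATG libraries together 7 of 8 endoderm markers (median -4.72) and 3 of 8 streak and mesoderm markers fell, and their part was not tested. In lncPRESS1 and lncSIRP edgeR called 0 of the 8 at the early stage, beside 0.283% and 8.90% of all genes, and 3 and 1 had an unadjusted p under 0.05. Between the late and the early stage of the vector libraries edgeR called 0, beside 0.124% of all genes, and 4 had an unadjusted p under 0.05. DESeq2 called 2 there, beside 601 of 14265 genes, and voom 0, beside 25 of 23300. UHRF1 had the highest value there (0.72 ± 0.15, adjusted p = 0.0635).

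The effect differed between stages for 6 of 8 members in lncPRESS1, 5 in lncPRESS1DATG and 7 in lncSIRP, beside 47.7%, 14.3% and 47.7% of all genes. Over the 3 stages, 6 of 8 members were called in lncPRESS1 (46.0% of all genes), 3 in lncPRESS1DATG (24.2%) and 6 in lncSIRP (50.0%). Without the middle stage 2, 3 and 4 members were called, beside 3371, 5815 and 6011 of 23300 genes. DNMT3B was then -0.02 in lncPRESS1 and 0.04 in lncSIRP, from -0.82 ± 0.07 and -0.84 ± 0.07, and TET2 was -0.68 and -0.93, from 0.53 ± 0.19 and 0.39 ± 0.19. In lncPRESS1 the calls of DNMT1, TET2 and TET3 were lost without 6, 7 and 9 of the 12 libraries left out in turn. In lncPRESS1DATG the fall of TET1 (-0.48 ± 0.10) was -0.02 without the early stage. The call of DNMT3B (0.22 ± 0.07) was lost without 5 of the 12 libraries.

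**Figure D4:**
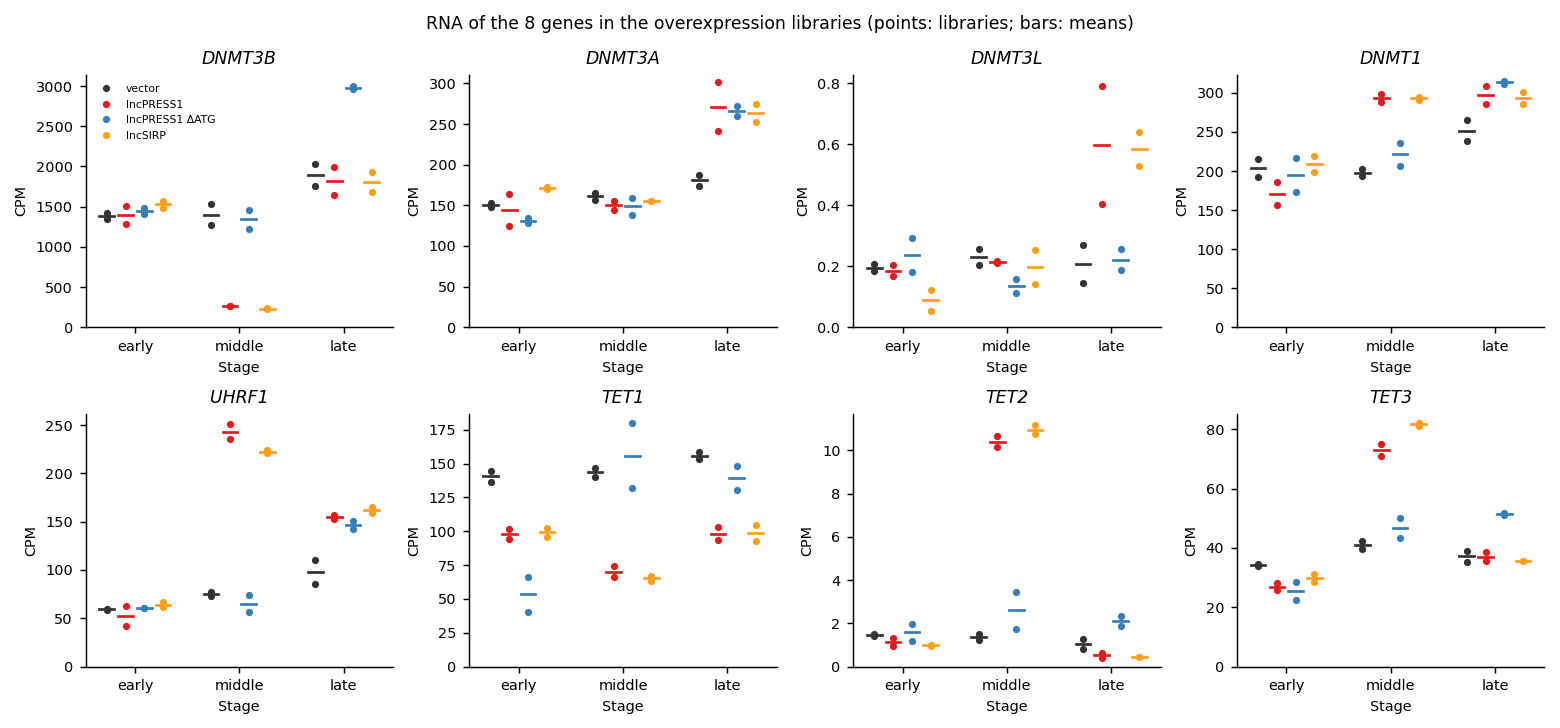
CPM of the 8 genes (y axes) at the early, middle and late stage (x axes) in libraries labelled vector, lncPRESS1, lncPRESS1DATG (drawn as lncPRESS1 ΔATG) and lncSIRP. Points are single libraries and short bars are group means. DNMT3B lies between 227 and 264 CPM in lncPRESS1 and lncSIRP at the middle stage and at 2958 and 3004 CPM in lncPRESS1DATG at the late stage.

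Across the 48 group means of the differentiation arm, which share day, protocol and sequencing with each other, the genes most like each member in log2 CPM were ranked by Pearson r. These values are descriptions. DNMT1 was most like NASP, a histone chaperone (r = 0.959), the helicase subunit MCM3 (0.956) and HMGB1P5 (0.955). UHRF1 was like CENPO (0.939) and CTPS1 (0.933), an enzyme that makes CTP. DNMT3B was most like CYP2S1, ESRG and CNMD (0.966 each), and DNMT3A was like SLC29A1 (0.813) and KLHL7 (0.761). TET2 was most like ZNF518B (0.943), HEPH (0.936) and ZNF608 (0.912), TET1 like MBTD1 (0.883), SLC39A10 (0.869) and ERCC6L2 (0.866), and TET3 like FAM217B (0.899), CAND1 (0.898) and EIF2AK2 (0.893). DNMT3L reached only 0.842, with PLAAT5, before DENND4B (0.833) and MAGI2 (0.826). Among the members themselves DNMT1 went with DNMT3B (0.848) and UHRF1 (0.823), and DNMT3B against TET2 (-0.742). Ranked by Spearman rho, the genes most like each member changed in part or in whole for every member. DNMT1 was then most like DUS3L (0.952), ATRIP (0.948) and THOP1 (0.947), with NASP at 0.906 and MCM3 at 0.911. DNMT3B was then most like RASGRP2 (0.948), DPPA4 (0.942) and JARID2 (0.932), while MBTD1 stayed first for TET1 (0.878).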

How the data were processed

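RNA of 120 H1 libraries was sequenced after poly(A) selection with the Illumina Stranded mRNA Prep Ligation kit, per the labels' protocols, with GRCh38 as the build, per the submitters' processing notes. The authors made 1 table of estimated counts per gene, marked as length scaled, per the file's deposited name. The aligner, the quantifier, its annotation and the strand setting were not given in the sources used here. Estimated counts were rounded to whole numbers. Each arm was fitted separately with edgeR 4.0.16 (TMM scaling, filterByExpr, quasi-likelihood F test, no replicate block) in R 4.3.3. This tested 25821 genes with 48 residual degrees of freedom and 23300 genes with 12. SE is the absolute log2 fold change over the square root of F. P-values were adjusted by Benjamini-Hochberg over all genes tested, threshold 0.05. Likeness used log2 CPM with a prior count of 2, for genes with a mean of at least 1.

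Whether letters a and b pair libraries is not stated. Deviations of same-letter libraries correlated above 0.1 in 3 of 3 group pairs at day 0 (0.371 to 0.743) and 15 of 15 in BMP4 (0.179 to 0.643). They did in 0 of 15 pairs in SMADi, 1 of 15 in Endo and 4 of 18 in the overexpression arm. The main fits leave the letters out everywhere, also at day 0 and in BMP4, where members called only with the replicate block are given beside them. Alternatives were DESeq2 1.42.0, limma 3.58.1 (voom), no filter on low counts, a replicate block, the compared groups only, and each library left out. The block fits a letter term within each day and protocol, or within each stage. For likeness the alternative was Spearman rho. Leaving out the early or middle stage was added after seeing the data. The members and the 16 gene lists were chosen with earlier results of these data known. The rule names all members and LNCPRESS1 in every comparison, of which the text gives those its results turn on. Of each list the text names from the 2 called genes with the highest and the 2 with the lowest change in a comparison, and for each member from the 3 genes most like it. Some genes under this rule are not reported here. The fits were tested on simulated data. Sequences are RefSeq's.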

Additional observations from a re-analysis of the deposited data

Results flagged for a closer look

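Effects that differed between protocols, days or stages by a test of the difference itself (edgeR's F test over the interaction, adjusted over all genes) are given with their adjusted p. Between the 3 protocols the effect of KO differed for DNMT1 (0.00155), UHRF1 (9.58e-16), DNMT3A (2.61e-06), DNMT3B (4.79e-36), DNMT3L (0.00212), TET2 (1.73e-17) and TET3 (2.22e-06). The effect of ΔATG differed for DNMT1 (0.0313), UHRF1 (4.36e-15), DNMT3A (1.07e-06), DNMT3B (1.31e-32), DNMT3L (4.57e-05), TET2 (2.99e-12) and TET3 (3.13e-08). The DNMT1 value in ΔATG was over the threshold without 11 of the libraries left out in turn.

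Between days the effect of KO differed in BMP4 for DNMT3B (9.56e-08), and in SMADi for DNMT1 (0.00324), UHRF1 (8.01e-07), DNMT3B (2.13e-19) and DNMT3L (0.0355). In BMP4 8.50% of all genes had such a call in KO and in SMADi 32.2%. The effect of ΔATG differed in BMP4 for DNMT3B (0.000862), where 1.64% of all genes were called. In SMADi it differed for DNMT1 (0.038), UHRF1 (2.53e-07), DNMT3A (0.00724), DNMT3B (2.85e-16) and DNMT3L (0.0371), where 29.5% were called. In Endo it differed for DNMT1 (0.0213), where 15.8% were called. In SMADi the DNMT3L call was lost without 8 libraries in KO and 10 in ΔATG, left out in turn, and the DNMT1 call in ΔATG without 14. The DNMT1 call in Endo was lost without 6.

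Between stages the effect of the libraries labelled lncPRESS1 differed for DNMT1 (0.00117), UHRF1 (7.69e-06), DNMT3A (0.00349), DNMT3B (2.84e-09), TET2 (4.31e-06) and TET3 (2.46e-05). For lncPRESS1DATG it differed for UHRF1 (0.0442), DNMT3A (0.0103), DNMT3B (0.016), TET1 (0.00154) and TET3 (0.00388). For lncSIRP it differed for DNMT1 (0.0265), UHRF1 (0.000116), DNMT3A (0.0212), DNMT3B (7.57e-10), DNMT3L (0.0186), TET2 (1.6e-06) and TET3 (9.98e-06). Such calls were made for 47.7%, 14.3% and 47.7% of all genes. With each of the 12 libraries left out in turn, the lncPRESS1DATG call was lost without 9 for UHRF1 (adjusted p up to 0.195), 2 for DNMT3B (0.0941) and 1 for DNMT3A (0.06). For lncSIRP it was lost without 6 for DNMT1 (0.0934), 5 for DNMT3A (0.0841) and 3 for DNMT3L (0.0898).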

How the results depend on the processing

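Counts of members called moved by more than 1.5 times as follows. KO at day 0 had 1, and 0 with the compared groups only, 2 with no filter and 5 with the replicate block. All genes called were, in that order, 937 of 25821, 7 of 20942, 1139 of 45960 and 2676 of 25821. KO in Endo had 2, and 4 with DESeq2, the compared groups or the replicate block (all genes: 4029 of 25821, 4530 of 23818, 5300 of 22868 and 5657 of 25821). ΔATG in BMP4 had 1, and 2 with DESeq2 or no filter and 4 with the block (all genes: 4089 of 25821, 4626 of 22817, 3982 of 45960 and 5885 of 25821). ΔATG in Endo had 3, and 5 with the compared groups or the block (all genes: 8983 of 25821, 10438 of 23029 and 10515 of 25821). For day dependence, KO in BMP4 had 1 (0 with the compared groups, 2 with the block), KO in SMADi 4 (7 with the block), KO in Endo 0 (1 with the block), ΔATG in BMP4 1 (0 with the compared groups), ΔATG in SMADi 5 (8 with the block) and ΔATG in Endo 1 (3 with the compared groups or no filter, 5 with the block). In that order, all genes called in KO, of 25821 unless given, were 2195 (433 of 22954, 4582), 8318 (10859) and 718 (1649). In ΔATG they were 423 (23 of 22881), 7625 (10157) and 4083 (6232 of 23029, 5097 of 45960, 6861). lncPRESS1 over 3 stages had 6, and 2 without the middle stage (all genes: 10711 and 3371 of 23300). Vector late against early had 0, and 2 with DESeq2 or no filter and 3 with the compared groups (all genes: 29 of 23300, 601 of 14265, 708 of 40441 and 1397 of 20082). With the replicate block TET1 was called for protocol dependence in KO and ΔATG (adjusted p = 0.0363 and 1.99e-05) and over days 1 to 5 of SMADi (0.0111 and 0.00568). The cause was not tested. With each library left out in turn, counts ran from 1 to 3 (ΔATG BMP4), 0 to 2 (ΔATG Endo day dependence), 3 to 5 (ΔATG SMADi day dependence), 1 to 4 (KO Endo), 0 to 4 (KO day 0), 3 to 6 (lncPRESS1 3 stages), 2 to 5 (lncPRESS1DATG stage dependence) and 0 to 1 (vector).

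Some values changed sign. DNMT3B at day 5 between BMP4 and SMADi was 0.004 with DESeq2, TET1 between BMP4 and Endo 0.015 with the compared groups and 0.013 with no filter, TET3 in ΔATG at day 0 -0.006 with the replicate block, and DNMT3B in ΔATG in Endo 0.001 with no filter. Without the middle stage DNMT1, TET2 and TET3 were -0.006, -0.675 and -0.174 in lncPRESS1, DNMT3L 0.191 in lncPRESS1DATG, and DNMT3B, TET2 and TET3 0.039, -0.925 and -0.128 in lncSIRP. With 1 library left out, ranges that crossed 0 were, for DNMT1, -0.015 to 0.048 (ΔATG Endo); for DNMT3A, -0.056 to 0.286 (ΔATG day 0) and -0.633 to 0.04 (KO day 0); for DNMT3B, -0.018 to 0.011 (ΔATG Endo) and -0.131 to 0.032 (BMP4 against SMADi). For DNMT3L they were -0.013 to 0.213 (ΔATG Endo), -0.093 to 0.776 (ΔATG day 0), -0.04 to 0.133 (KO BMP4), -0.004 to 0.231 (KO Endo), -0.749 to 0.208 (KO day 0), -0.256 to 0.045 (lncPRESS1DATG), -0.19 to 0.222 (lncSIRP) and -0.439 to 0.459 (vector). For TET1 they were -0.568 to 0.187 (ΔATG day 0), -0.931 to 0.023 (KO day 0), -0.643 to 0.102 (WT BMP4), -0.621 to 0.124 (WT Endo) and -0.162 to 0.104 (BMP4 against Endo). For TET2 they were -0.102 to 0.057 (ΔATG BMP4) and -0.08 to 0.183 (KO day 0), for TET3 -0.238 to 0.238 (ΔATG day 0) and -0.074 to 0.032 (KO BMP4), and for UHRF1 -0.287 to 0.136 (ΔATG day 0), -0.376 to 0.014 (WT SMADi) and -0.122 to 0.267 (BMP4 against SMADi). Of values with 1 library left out, 3547 kept direction and side of the threshold, 117 lost a call, 28 gained one and 52 changed sign. With the other alternatives these were 993, 25, 88 and 12. The values of DNMT3L rest on few counts.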

Other observations

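Genes that DNA methylation is known to silence or that supply its substrates were counted too, beside 42.0%, 51.6% and 62.4% of all genes called by day 5 in WT in BMP4, SMADi and Endo. Nothing particular to these lists is read from their counts. Of 16 germline genes, 11 passed the filter in the differentiation arm. By day 5 in WT 1 rose and 5 fell in BMP4, 1 rose and 5 fell in SMADi, and 0 rose and 4 fell in Endo. DAZL, an RNA-binding protein of germ cells, measured 1.25 and 1.14 CPM at day 0 and 32.6 and 35.1 at day 5 of SMADi in WT (4.82 ± 0.34). It stood at 2.11 and 2.3 CPM in KO and 4.35 and 2.41 in ΔATG on the same day, without overlap with WT.

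Of 11 genes that supply methyl groups or oxoglutarate, 1 rose and 7 fell in BMP4, 4 rose and 6 fell in SMADi, and 2 rose and 6 fell in Endo. MTHFD1, a folate cycle enzyme, fell in SMADi (-2.58 ± 0.10) and Endo (-3.01 ± 0.10), and SHMT2, its mitochondrial neighbour in the pathway, in BMP4 (-1.15 ± 0.10). Of 9 genes of imprint and KRAB zinc finger silencing, 1 rose and 2 fell in BMP4, 2 rose and 6 fell in SMADi, and 2 rose and 5 fell in Endo. NLRP7, a maternal-effect gene of imprinting, fell in each (-1.23 ± 0.34, -4.94 ± 0.45 and -2.53 ± 0.37), and in SMADi was lower still in KO than in WT (-4.25 ± 0.33).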
